A study of Mus musculus with 5 samples.

Results

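H2AK119ub-only regions at gene ends are stretches of basal epidermal chromatin in which histone H2A monoubiquitinated on a lysine of its tail (H2AK119ub) was called without trimethylated histone H3 (H3K27me3). They were chosen by the called coordinates of both marks, as regions of the H2AK119ub list on chromosomes 1 to 19 that were under 100 kb wide, shared no base with the H3K27me3 list and lay within 1 kb of the first or last base of a protein-coding gene in the mm10 RefSeq annotation. Of 33155 H2AK119ub regions in the list, 30089 were autosomal, 10087 of these lay within 1 kb of a gene end, and 6166 met the whole rule. They made up 20.5% of the autosomal H2AK119ub regions and 61.1% of those at gene ends. The rule used position, width and the absence of H3K27me3, so these properties are described and nothing is tested from them.

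The chromatin came from the back skin of mice of control genotype at postnatal day 71 that carried the reporters K14-RFP and K10-H2B-GFP. The keratin 14 promoter drives the red reporter in basal keratinocytes, and the keratin 10 promoter drives the green one in keratinocytes that have begun to differentiate. Cells were sorted as Sca1(+) RFP(high) GFP(−), which selects basal cells of the epidermis between hair follicles. There were 2 libraries precipitated with an H2AK119ub antibody, 2 with an H3K27me3 antibody and 1 input library, and 1 list of called regions per mark was analysed. The lists hold a chromosome, a start and an end for each region, so read depth, signal height and the spread between libraries are unknown, no difference below carries a test, and a gene without a called region may still carry the mark below an unknown threshold. Whether the 2 libraries of a mark came from different mice is not stated.

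The marker genes of the sorted population were read for which of them carried either mark within 1 kb of an end, which shows no expression. Over all autosomal protein-coding genes, 33.8% had an H2AK119ub-only region there and 22.1% had H3K27me3. None of 7 basal keratinocyte markers had H3K27me3 there, and 3 of them (Itga6, Itgb4 and Col17a1) had an H2AK119ub-only region. All 5 Merkel cell markers and 4 of 5 fibroblast markers had H3K27me3, and none of these 10 genes had an H2AK119ub-only region. Among suprabasal markers Krt10 and Lor had H3K27me3, and among melanocyte markers Sox10 did, while Mitf and Dct had H2AK119ub-only regions. Of 3 Langerhans and T cell markers Cd207 and Cd3e had H3K27me3, and of 2 endothelial markers neither did, with an H2AK119ub-only region at Pecam1.

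H2AK119ub is written by Polycomb repressive complex 1 (PRC1), whose catalytic subunits are Ring1 and Rnf2. H3K27me3 is written by Polycomb repressive complex 2 (PRC2) through Ezh1 or Ezh2. Canonical PRC1 holds a Cbx subunit that binds H3K27me3, whereas variant PRC1 holds Rybp or Yaf2 in its place and does not need H3K27me3 to find its sites. A variant complex with Kdm2b binds unmethylated CpG dinucleotides, which are dense at many promoters. In the epidermis both complexes are known for keeping genes of other lineages silent, such as those of Merkel cells, and PRC1 products without H3K27me3 have been described at silent and at expressed genes.

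The regions differed among themselves in how they met the transcript start and in the base composition of the promoters there. The printed windows are examples chosen by their composition or by their gaps. They do not show how coverage of the start and composition go together. The windows below are RefSeq promoter windows of build GRCm38.p6 (mm10), which run from 250 bases before to 50 bases after an annotated start, printed on the strand of the gene with CG dinucleotides in capitals. The CpG ratio is the number of CG dinucleotides over the number that the C and G content would give by chance. The first 3 are the windows with the highest ratio that lay wholly inside an H2AK119ub-only region, 1 window a gene, among genes of the 10 lists for basal and suprabasal epidermis, hair follicle, AP-1, Notch, EGF, NF-kB, cytokines, TGF-beta and Wnt. Errfi1, a feedback inhibitor of the EGF receptor, has 41 CG dinucleotides at chr4:150854820-150855119 on the plus strand, with a ratio of 1.23. Traf3, an adaptor of TNF receptor signalling, has 59 at chr12:111166120-111166419 on the plus strand, with a ratio of 1.20. Jag2, a Notch ligand, has 63 at chr12:112929446-112929745 on the minus strand, with a ratio of 1.14.
Errfi1: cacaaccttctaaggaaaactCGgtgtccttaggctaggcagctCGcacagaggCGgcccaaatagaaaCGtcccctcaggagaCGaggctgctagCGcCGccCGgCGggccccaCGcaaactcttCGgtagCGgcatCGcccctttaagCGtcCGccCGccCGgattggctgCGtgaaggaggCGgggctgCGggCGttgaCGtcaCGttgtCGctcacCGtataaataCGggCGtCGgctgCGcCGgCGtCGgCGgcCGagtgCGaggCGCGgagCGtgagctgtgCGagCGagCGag
Traf3: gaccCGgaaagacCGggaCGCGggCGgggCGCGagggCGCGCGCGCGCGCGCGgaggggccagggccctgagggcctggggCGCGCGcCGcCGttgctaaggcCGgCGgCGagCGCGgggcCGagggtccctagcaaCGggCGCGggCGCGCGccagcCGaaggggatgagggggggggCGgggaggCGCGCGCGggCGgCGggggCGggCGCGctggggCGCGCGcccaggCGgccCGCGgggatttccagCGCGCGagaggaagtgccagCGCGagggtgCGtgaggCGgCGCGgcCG
Jag2: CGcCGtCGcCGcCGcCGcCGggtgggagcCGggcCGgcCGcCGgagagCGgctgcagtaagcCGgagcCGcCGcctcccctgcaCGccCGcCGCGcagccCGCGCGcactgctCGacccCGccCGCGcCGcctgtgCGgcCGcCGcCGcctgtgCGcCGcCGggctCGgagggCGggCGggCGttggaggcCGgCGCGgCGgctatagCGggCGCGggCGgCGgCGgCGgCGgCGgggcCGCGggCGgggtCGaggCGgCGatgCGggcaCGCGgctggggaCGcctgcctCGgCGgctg
The next 3 are the windows with the lowest ratio among the same genes, and they too lay wholly inside an H2AK119ub-only region. Ivl, which encodes the cornified envelope protein involucrin, has no CG dinucleotide at chr3:92573686-92573985 on the minus strand. Its window holds the AP-1 motif TGANTCA from 116 bases before the start and a TATAAA from 29 bases before it. Lamb3, a laminin chain of the basement membrane, has 2 CG dinucleotides at chr1:193301744-193302043 on the plus strand, with a ratio of 0.0761. Csf2, which encodes the cytokine GM-CSF, has 3 at chr11:54249850-54250149 on the minus strand, with a ratio of 0.126.
Ivl: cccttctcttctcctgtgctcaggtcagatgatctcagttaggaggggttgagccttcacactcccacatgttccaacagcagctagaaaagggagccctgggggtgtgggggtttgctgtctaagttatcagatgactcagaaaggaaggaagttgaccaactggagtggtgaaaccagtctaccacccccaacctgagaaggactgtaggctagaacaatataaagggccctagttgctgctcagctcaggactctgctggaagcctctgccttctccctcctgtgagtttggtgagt
Lamb3: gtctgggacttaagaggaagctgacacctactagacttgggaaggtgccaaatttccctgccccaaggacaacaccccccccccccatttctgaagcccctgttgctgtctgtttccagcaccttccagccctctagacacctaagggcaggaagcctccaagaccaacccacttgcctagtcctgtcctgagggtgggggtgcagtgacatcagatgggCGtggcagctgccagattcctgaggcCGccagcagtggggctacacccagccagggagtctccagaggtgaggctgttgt
Csf2: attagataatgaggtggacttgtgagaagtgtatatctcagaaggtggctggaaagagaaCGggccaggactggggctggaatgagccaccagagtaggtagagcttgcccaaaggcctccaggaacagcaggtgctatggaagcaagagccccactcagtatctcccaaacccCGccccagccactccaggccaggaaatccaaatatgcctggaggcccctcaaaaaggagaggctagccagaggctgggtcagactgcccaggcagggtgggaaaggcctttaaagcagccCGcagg
The last pair are starts that no region covered although an H2AK119ub-only region ended within 1 kb on each side. Among genes of the same lists whose whole window lay outside every region, they had the largest summed width of the flanking regions, and they were chosen after the gaps at starts had been seen. Id4, an inhibitor of basic helix-loop-helix factors and a target of bone morphogenetic proteins, has 39 CG dinucleotides at chr13:48260866-48261165 on the plus strand, with a ratio of 0.988. Jag1, a Notch ligand, has 22 at chr2:137116471-137116770 on the minus strand, with a ratio of 0.959.
Id4: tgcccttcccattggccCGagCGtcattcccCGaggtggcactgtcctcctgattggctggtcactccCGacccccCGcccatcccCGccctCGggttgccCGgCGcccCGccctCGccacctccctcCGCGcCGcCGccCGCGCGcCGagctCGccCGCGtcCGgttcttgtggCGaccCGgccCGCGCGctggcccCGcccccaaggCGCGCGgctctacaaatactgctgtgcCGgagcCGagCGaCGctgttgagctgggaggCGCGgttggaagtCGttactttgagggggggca
Jag1: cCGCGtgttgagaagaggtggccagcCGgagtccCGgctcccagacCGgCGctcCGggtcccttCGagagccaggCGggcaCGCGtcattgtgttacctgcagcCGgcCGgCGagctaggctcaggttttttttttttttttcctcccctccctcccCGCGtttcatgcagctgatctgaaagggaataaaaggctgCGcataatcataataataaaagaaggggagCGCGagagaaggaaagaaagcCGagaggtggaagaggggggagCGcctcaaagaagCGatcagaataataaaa

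Transcript starts that an H2AK119ub-only region lay at, but did not cover, were common where the promoter was rich in CpG. The promoter table gave 20063 distinct starts of 16437 autosomal protein-coding genes, and 9323 of them were CpG-rich, with a window of at least 50% GC and a CpG ratio of at least 0.6. An H2AK119ub-only region covered or lay within 1 kb of 5075 starts, 25.3% of all starts, and covered 3099, which is 15.4% of all starts. The other 1976 starts (38.9% of those near a region, 95% Clopper-Pearson interval 37.6% to 40.3%, counting error only) lay outside it. Of these, 897 had a region upstream only, 761 downstream only and 318 on both sides. No other H2AK119ub region and no H3K27me3 region covered any of the 1976 starts. The gaps at starts were noticed in these data and then measured in the same data.

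Among CpG-rich starts the uncovered share was higher than among the rest. Of 3119 CpG-rich starts near an H2AK119ub-only region, 1615 were not covered (51.8%, interval 50.01% to 53.5%). The size of this share depends on the distance that counts as near. It was 32.7% for starts within 500 bp, where regions sharing bases with H3K27me3 left 7.21%, and 30.6% when only regions that cover a gene end were taken. Of 1956 other starts near such a region, 361 were not covered (18.5%, interval 16.8% to 20.2%). Regions at gene ends that shared bases with H3K27me3 left fewer starts uncovered. There, 341 of 2311 CpG-rich starts (14.8%, interval 13.3% to 16.3%) and 105 of 2163 other starts (4.85%, interval 3.99% to 5.85%) were not covered. The intervals treat starts as independent, although neighbouring starts share regions.

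Wider regions cover more starts by size alone, and regions sharing bases with H3K27me3 were wider, so the shares were also taken within width classes. Among regions under 5 kb, 613 of 715 CpG-rich starts (85.7%) near H2AK119ub-only regions were uncovered, against 31 of 109 (28.4%) near regions sharing bases. Between 5 and 10 kb these shares were 60.7% near H2AK119ub-only regions and 15.6% near regions sharing bases. Between 10 and 20 kb they were 39.2% near H2AK119ub-only regions and 14.9% near regions sharing bases. Between 20 and 50 kb they were 28.4% near H2AK119ub-only regions and 16.0% near regions sharing bases, and between 50 and 100 kb 21.6% near H2AK119ub-only regions and 13.0% near regions sharing bases. The H2AK119ub-only class had the higher share in each of the 5 width classes, and its share was lower in each wider class. At other starts the same class left 48.9% uncovered under 5 kb and 2.14% between 50 and 100 kb. Width is not independent of coverage, since a stretch broken at a start is listed as shorter regions. The fall with width may partly follow from this, and the classes do not fully adjust for width. Each start was entered under a single width. Of the uncovered CpG-rich starts, 276 had H2AK119ub-only regions on both sides. At Jag1 the width recorded was 4.04 kb beside 12.7 kb on the other side, and at Hdac5 22.9 kb beside 16.0 kb.

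Coverage by position shows the gap as a dip centred on the start. At CpG-rich starts, H2AK119ub-only regions covered 27.8% of starts 2 kb upstream, 16.1% at the start itself and 24.6% 1 kb downstream. Regions sharing bases with H3K27me3 covered 23.0% 2 kb upstream, 21.1% at the start and 22.3% 1 kb downstream. The dip at the start was thus deeper for H2AK119ub-only regions, and it was shallow at other starts, where their coverage was 14.7% 2 kb upstream, 14.9% at the start and 15.8% 1 kb downstream. The last bases of genes showed no comparable dip, with coverage of 18.3% 1 kb before the end of the gene, 17.9% at the end and 18% 1 kb after it. Of 3477 gene ends near an H2AK119ub-only region, 538 (15.5%) were uncovered.

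**Figure D1:**
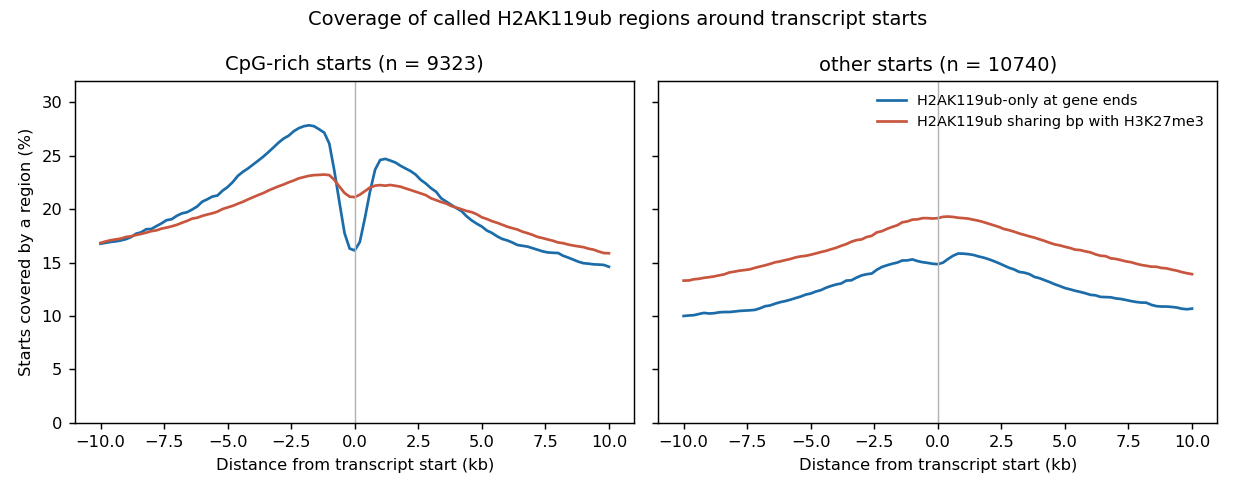
Share of transcript starts (%) at which a called region covered the position at each distance from the start (kb, negative upstream), in steps of 200 bp. H2AK119ub-only regions at gene ends (blue) dip from 27.8% 2 kb upstream to 16.1% at CpG-rich starts (left), where regions sharing bases with H3K27me3 (red) stay at 21.1%; at other starts (right) neither line has a dip of that depth.

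Since a start counted as near only within 1 kb, the distances to it are at most 1 kb by the rule and are given as a description. Where a region lay upstream only, its near edge was a median of 605 bp from the start (quartiles 425 and 785 bp). Where it lay downstream only, the median was 484 bp (quartiles 298 and 658 bp). Between regions on both sides the median gap was 1160 bp, with quartiles of 1056 and 1340 bp and a range of 661 to 1852 bp. Neighbouring H2AK119ub regions could lie closer than that in the list, since the shortest distance between them was 2 bp and 1602 of 30070 neighbouring pairs were under 1 kb apart. Another 6759 pairs were 1 to 2 kb apart, many more than the 318 starts with a region on both sides. Gaps of this size were thus common in the list as a whole, where the median distance between neighbours was 7.67 kb.

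Genes with starts between a pair of H2AK119ub-only regions included several signalling genes. At Id4 an 18.1 kb region ended 758 bp before the start and a 17.8 kb region began 175 bp after it, which left 932 bases uncovered. At Jag1 a 4.04 kb region ended 909 bp before the start and a 12.7 kb region began 408 bp after it, leaving 1316 bases. At Hdac5, a class II histone deacetylase, regions of 22.9 and 16.0 kb left 1037 bases uncovered. The other genes of the lists with this arrangement were Ski, a SMAD corepressor, with 1010 bases, Il1b, the interleukin 1 beta gene, with 878 bases, Fzd1, a Wnt receptor, with 1474 bases, and Rxrb, a retinoid X receptor, with 1576 bases. Il1b was the exception in composition, with a CpG ratio of 0.202, while the other 6 lay between 0.660 and 1.12.

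The uncovered share changed stepwise with CpG content. Of starts with a CpG ratio under 0.2, 13.1% lay within 1 kb of an H2AK119ub-only region, and this share was 35% among starts with a ratio of 1 or more. The covered share did not follow, being 12.2% in the lowest class, 18.4% at ratios of 0.4 to 0.6 and 13.0% in the highest class. Of the starts near such a region, those left uncovered were 6.95% in the lowest class, 29.1% at 0.4 to 0.6 and 62.8% in the highest. Near regions sharing bases with H3K27me3 the uncovered share was 4.15%, 5.54% and 24.9% in the same 3 classes. The added starts of CpG-rich genes thus lay beside H2AK119ub-only regions and not under them.

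**Figure D2:**
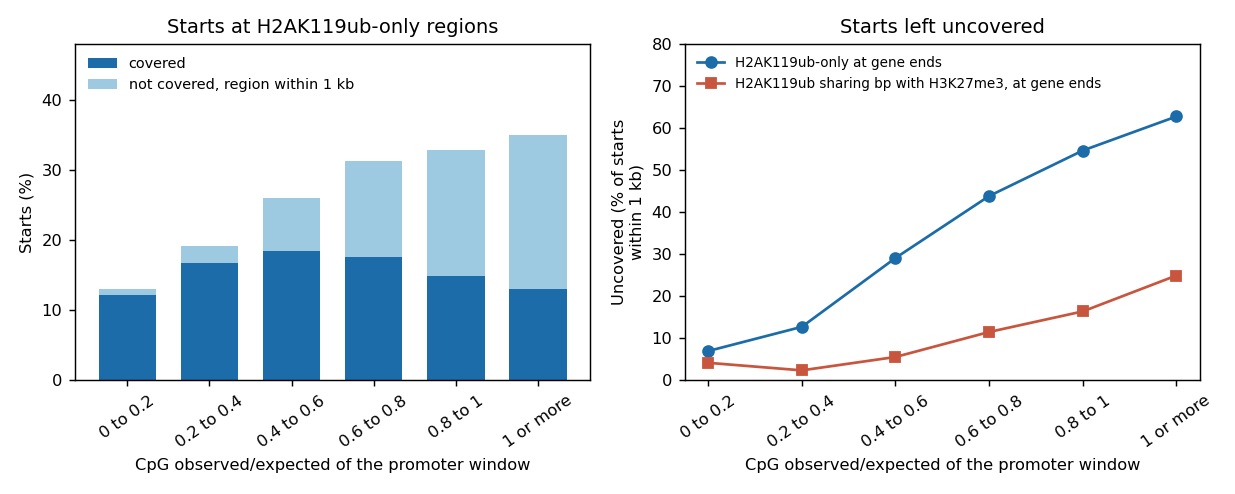
Left, share of all starts (%) covered by an H2AK119ub-only region (dark) or within 1 kb of such a region and uncovered (light), by CpG ratio of the promoter window. Right, share of nearby starts left uncovered (%) by H2AK119ub-only regions (blue) and by regions sharing bases with H3K27me3 (red); the blue line reaches 62.8% and the red line 24.9% at ratios of 1 or more.

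Promoter windows beside H2AK119ub-only regions were the most CpG-rich of the classes compared. Of 6979 genes with such a region, 5614 matched a window in the RefSeq table. Windows that lay beside a region, wholly outside both marks, had a median CpG ratio of 0.841 (quartiles 0.701 and 0.962, n = 1856), and 83.4% of them were CpG-rich. Windows wholly inside a region had a median of 0.594 (quartiles 0.274 and 0.815, n = 3037), and 48.6% were CpG-rich. Windows under both marks had 0.615 (n = 2622), those under H3K27me3 alone 0.380 (n = 547), those under neither mark with no H2AK119ub-only region near 0.457 (n = 9775), and all windows 0.585 (n = 20063). Windows inside the regions were thus close in composition to all windows, and those beside them were not.

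**Figure D3:**
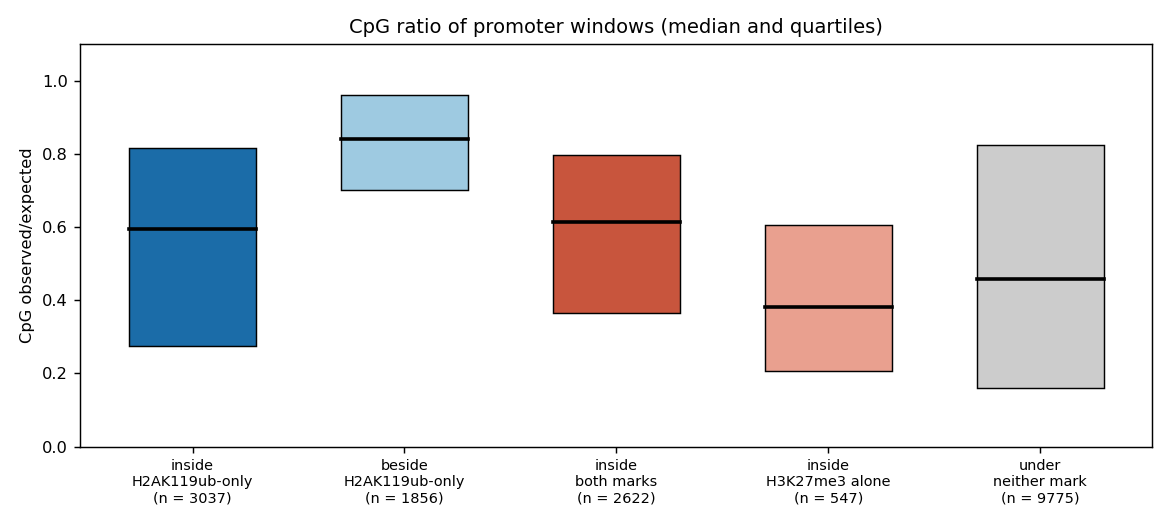
CpG ratio of RefSeq promoter windows by the mark over them, with boxes from the first to the third quartile and a line at the median. Windows beside H2AK119ub-only regions have the highest median, 0.841, and windows inside them 0.594.

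Motifs were searched on both strands of the windows as plain letters, so a match is a description of sequence and not a bound site. The ETS motif CCGGAA was in 31.4% of windows beside H2AK119ub-only regions and 14.9% of windows inside them, against 19.1% of all windows. Among CpG-rich windows alone it was in 34.1% of those beside and 22.7% of those inside the regions, against 10.6% of those under both marks, 42.9% of those under neither and 31.3% of all. The NRF1 motif, of a factor for nuclear genes of mitochondrial proteins, was in 3.02% of windows beside and 0.955% of windows inside the regions, against 1.34% of all windows. The motif AAGATGG of YY1 was in 8.24% beside and 4.87% inside, against 6.30% of all. Windows beside the regions were thus above all windows for these 3 motifs, and windows inside them below. Among CpG-rich windows alone the NRF1 motif was in 3.36% beside, 1.76% inside and 3.76% under neither mark. The YY1 motif was in 8.73% beside, 4.27% inside and 9.04% under neither. CpG-rich windows under neither mark thus held each of the 3 motifs more often than those beside the regions.

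The other 7 motifs ranged from GC-rich to AT-rich ones, and no correction for base composition was made. The GC box GGGCGG was in 74.0% of windows beside and 56.9% of windows inside the regions, against 47.0% of all, and among CpG-rich windows alone in 79.3% of those beside and 83.1% of those inside, against 76.8% of all. The E-box CACGTG was in 11.9% beside and 9.22% inside, against 7.89% of all. The E2F motif TTCCCGCC was in 4.36% beside and 3.39% inside, against 2.86% of all, and it can overlap a GC box; among CpG-rich windows it was in 4.72% beside and 5.21% inside, against 4.92% of all, so the order turned. The CRE TGACGTCA was in 3.88% beside and 1.48% inside, against 2.3% of all, the same order as for the ETS, NRF1 and YY1 motifs. Among CpG-rich windows the CRE kept this order, with 4.40% beside and 2.03% inside, against 3.78% of all and 4.94% under neither mark. TATAAA was in 5.50% beside and 8.23% inside, against 12.7% of all, and the AP-1 motif TGANTCA in 4.15% beside and 6.26% inside, against 7.06% of all. Among CpG-rich windows the AP-1 order turned too, with 3.43% beside and 2.51% inside, against 3.26% of all. CCAAT was in 39.2% beside and 35.8% inside, against 38.1% of all, again in that order. Among CpG-rich windows CCAAT was in 37.6% beside and 36.2% inside, against 36.0% of all, so those inside were not below all. In the printed windows the GC box stood 3 times at Errfi1, 4 times at Traf3, 5 times at Jag2, 5 times at Id4 and 1 time at Csf2, and Errfi1 held a CRE from 51 bases before the start.

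H2AK119ub-only regions at gene ends were shorter than those at gene ends that shared bases with H3K27me3, and longer than H2AK119ub-only regions elsewhere. Their median width was 9.62 kb (quartiles 4.93 and 18.4 kb), and together they covered 90.1 Mb. The 3891 regions at gene ends that shared bases with H3K27me3 had a median of 21.3 kb (quartiles 10.7 and 42.2 kb) and covered 133 Mb. This class has no width limit and held 239 regions of 100 kb or more, and without them its median was 19.7 kb (quartiles 10.2 and 37.1 kb, n = 3652). H2AK119ub-only regions inside genes, away from their ends, had a median of 5.96 kb (n = 7541), and those outside protein-coding genes 5.91 kb (n = 8156). A wide region meets a gene end and an H3K27me3 region more easily than a short one, so the rule itself bears on these widths. Among H2AK119ub-only regions at gene ends, 1.12% were under 1 kb, against 0.154% of the regions sharing bases, and 3.99% were between 50 and 100 kb, against 13.5%.

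**Figure D4:**
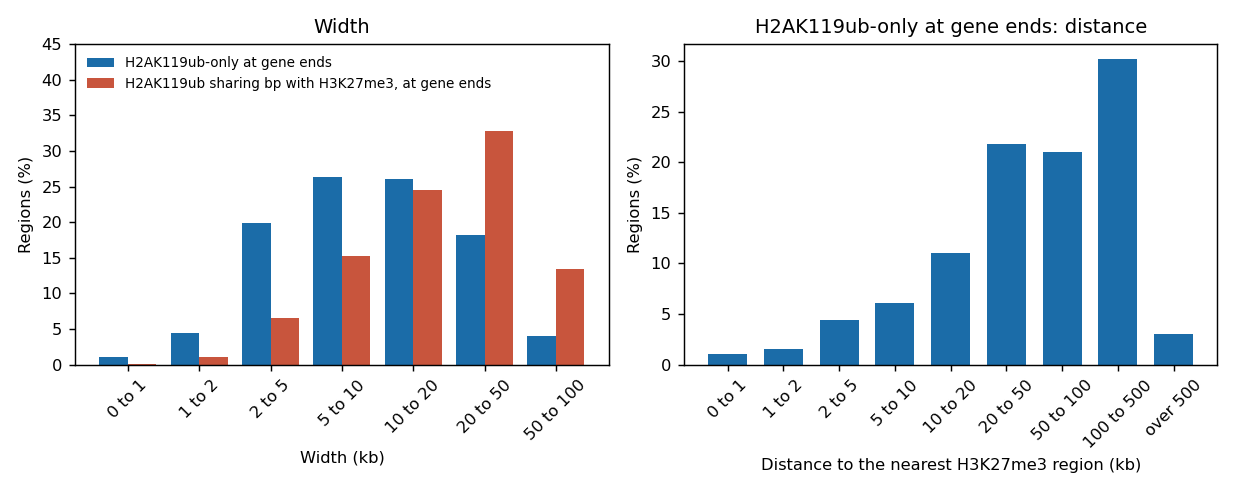
Left, share of regions (%) by width (kb) for H2AK119ub-only regions at gene ends (blue) and regions at gene ends sharing bases with H3K27me3 (red). Right, share of H2AK119ub-only regions at gene ends (%) by distance to the nearest H3K27me3 region (kb); 13.0% lie within 10 kb and 66.8% within 100 kb.

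The widest region, 98.0 kb at chr13:56547489-56645525, held ends of Tgfbi, an extracellular matrix protein gene induced by TGF-beta, and Lect2. Next in width was a 97.1 kb region at chr11:108855107-108952210 with Axin2, a negative regulator and target of Wnt signalling. The third, 96.3 kb at chr11:117754306-117850615, held ends of 8 genes, among them Birc5, which encodes survivin, and Tk1, which encodes thymidine kinase. The 10 widest also included regions at Lsm3, Zmynd8, Hcfc2, Ctnnbip1, Id2, Csf1 and Morn1 with Ski, from 95.8 kb at Lsm3 to 93.5 kb at Morn1. Just outside the width limit were H2AK119ub-only regions of 100709 bp at Ccdc88c, 103337 bp at Pdgfb and Rpl3 and 103477 bp at Man1c1, and 30 regions at gene ends were left out for their width. The narrowest was 532 bp at Kansl1, followed by 540 bp at Ccdc130 and 541 bp at Adck2.

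The distance of H2AK119ub-only regions at gene ends from H3K27me3 had a median above their median width. The median distance to the nearest H3K27me3 region was 57.3 kb (quartiles 21.1 and 133 kb). Inside genes the median was 76.8 kb and outside genes 76.0 kb. Only 63 regions at gene ends (1.02%) lay within 1 kb of H3K27me3 and 803 (13.0%) within 10 kb, while 185 (3.0%) lay more than 500 kb away. Nearest to the limit of the rule were regions 6 bp from H3K27me3 at Meis3, 15 bp at Ythdf3, 18 bp at Zfp608, 21 bp at F10 and Proz and 23 bp at Crhr2. Just outside it were regions that shared 6 bp at Psmb9, 60 bp at Btc and 68 bp at Pctp. The farthest lay 4032619 bp from H3K27me3, at Pcdh7, a protocadherin gene, and the next 2907377 bp, at Ism1.

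The regions were spread over all 19 autosomes, with different shares of genes. Chromosome 11 held 551 of them, 25.1% of its H2AK119ub regions, and 670 of its 1609 protein-coding genes (41.6%) had a region at an end. Chromosome 19 had 291 of 705 genes (41.3%). Chromosome 13 had the lowest share, with 203 regions (13.1% of its H2AK119ub regions) and 204 of 829 genes (24.6%).

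Transcript starts were met more often than gene ends. Of 5145 H2AK119ub-only regions whose genes had a strand in the promoter table, 48.6% lay at starts only, 26.8% at both a start and an end and 24.6% at ends only. Of 3196 regions sharing bases with H3K27me3, 45.4% lay at starts only, 41.6% at both and 13.0% at ends only. Thus 75.4% of H2AK119ub-only regions and 87.0% of regions sharing bases met a start. Divergent pairs of starts, on opposite strands and within 1 kb of each other, were in 179 of 3881 H2AK119ub-only regions at starts (4.61%) and in 70 of 2781 regions sharing bases (2.52%).

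An H2AK119ub-only region usually met the end of a single gene. There was 1 gene at 4382 regions (71.1%), a pair at 1364 (22.1%) and 3 or more at 420 (6.81%). The region with the most genes, 64.4 kb at chr17:25824109-25888545, held ends of 10 genes, among them Stub1, a ubiquitin ligase of chaperones, Jmjd8 and Wdr90. The regions at Ly6g6d and at Birc5 held ends of 8 genes each, and those at Ctsa and at Klhl21 ends of 7 each. Genes that share a region are therefore not independent in the counts that follow.

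Across the protein-coding genes, 6979 of 20665 (33.8%) had an H2AK119ub-only region within 1 kb of an end. The region covered a median of 25.5% of the gene (quartiles 4.38% and 85.9%). In 1142 genes (16.4%) it covered the whole gene, and these had a median length of 5.58 kb, against 20.9 kb for all genes with such a region. In 907 genes (13.0%) it covered no base of the gene and lay beside it. H3K27me3 lay within 1 kb of an end of 4573 genes (22.1%), and neither mark did at 8316 genes (40.2%).

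At 562 genes (2.72%) an H2AK119ub-only region lay at an end of a gene that also had H3K27me3 within 1 kb of an end. In 312 of them the H2AK119ub-only region was at the last base and H3K27me3 at the start, and in 105 it was the other way round. The strand was not given for 121 others with the marks at opposite ends, and 24 had both near 1 end. The rule itself favours opposite ends, since a region at the same end as H3K27me3 may share no base with it. The 312 genes had a median length of 50.8 kb and the 105 genes one of 28.3 kb. Krt10, the keratin of suprabasal cells whose promoter drives the green reporter, had a 4.81 kb H2AK119ub-only region past its end and a 9.57 kb H3K27me3 region at its start. Lgr6, a receptor for R-spondins in epidermal stem cells, had a 64.4 kb H2AK119ub-only region at its end that covered 51.8% of the gene and a 2.46 kb H3K27me3 region at its start. Tgfa, an EGF receptor ligand, had a 27 kb H2AK119ub-only region at its end and 5.11 kb of H3K27me3 at its start. Some of these genes also had a wider H2AK119ub region at an end that did not meet the rule. It was 66.9 kb at Krt10, 105 kb at Lgr6, 27.5 kb at Tgfa and 17.1 kb at Tubb3, named below. The end with H3K27me3 was thus not necessarily free of H2AK119ub. At Pax8, Sox6 and Myh14, also named below, the H2AK119ub-only region was the widest H2AK119ub region at an end.

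The same order held at Pax8, a thyroid and kidney factor, with a 16.5 kb H2AK119ub-only region past the end and 19.8 kb of H3K27me3 at the start. It also held at Sox6, a factor of the basal epidermis list, with 37.8 kb of H2AK119ub-only and 21.6 kb of H3K27me3. Tubb3, a neuronal tubulin, had it too, with 8.53 kb of H2AK119ub-only and 9.17 kb of H3K27me3. The other genes of the lists with this order were Areg, Cd34, Col5a1, Prpf8, Smurf1, Sp2, Tnfrsf1b and Tpm1. In the opposite order, Myh14, a nonmuscle myosin heavy chain, had a 41.3 kb H2AK119ub-only region at its start and 7.06 kb of H3K27me3 at its end, and Nfkbib, Psmd8 and Rxrb were arranged likewise.

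Gene lists were compared by how many of their autosomal members had an H2AK119ub-only region at an end, beside 33.8% of all protein-coding genes, and by the width of the widest such region, whose median over all 6979 genes was 12.8 kb. Lists were chosen with earlier results of these data known, so the shares are descriptions. Long or clustered genes meet regions more easily, which was not adjusted for. A width is that of the whole region, which can lie beside the named gene or hold ends of its neighbours.

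Genes of the basal layer were divided among several states. In the basal epidermis list 14 of 28 genes (50%) had such a region, with a median width of 26.3 kb. H3K27me3 lay at an end of 6 of the 28 (21.4%), Sox6 among them, beside 22.1% of all genes. Itgb4, the integrin chain of hemidesmosomes, lay whole in an 83.6 kb region at chr11:115937981-116021605. Plec, which encodes the hemidesmosome linker plectin, had 77.2 kb, Lamb3 75.2 kb and Col17a1, the hemidesmosomal collagen, 44.9 kb, which covered 94.8% of the gene. These 4 genes encode parts of the structure that anchors basal cells to the basement membrane. Of the other adhesion genes in the list, Dst and Itga3 had H3K27me3, Jup and Pkp1 had other H2AK119ub, and Dsg3 and Dsc3 had neither mark at an end. None of the 7 starts of the list near a region was uncovered, but only 2 of the 7 were CpG-rich. The keratin genes Krt5, Krt14 and Krt15 had H2AK119ub without H3K27me3 at an end, but in regions that met H3K27me3 elsewhere or were 100 kb or wider, and Trp63, the master factor of stratified epithelia, had neither mark at an end.

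In the suprabasal list 12 of 28 genes (42.9%) had a region, with a median of 17.3 kb. Tgm3, a transglutaminase of the cornified envelope, had 46.6 kb at chr2:129987935-130034494. The kallikrein proteases Klk5 and Klk7, which act in shedding of corneocytes, shared a region of 45.8 kb with Klk6, Klk8 and Klk9. Cdsn, which encodes the adhesion protein corneodesmosin, had 29.8 kb and Ivl 3.46 kb. Of 9 starts near a region, 1 was uncovered, at Calm4, and only 1 of the 9 was CpG-rich.

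Subunits of protein phosphatase 1, a family of regulators and catalytic chains of a serine and threonine phosphatase, had a region at 23 of 40 genes (57.5%).

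The Hippo and YAP list had 15 of 25 genes (60%) with a region, at a median width of 31.3 kb. Amotl2, a YAP binding protein, lay whole in a 66.3 kb region, Vgll4, a TEAD cofactor, had 64.9 kb, and the TEAD factors Tead3 and Tead4 had 60.7 and 39.9 kb. Yap1 and Wwtr1, the transducers of the pathway, had neither mark at an end.

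Among immediate early and AP-1 genes, 17 of 30 (56.7%) had a region, with a median of 28.9 kb. Ier5 lay whole in 59.4 kb, Maff, a small Maf factor, in 53.3 kb and Fos in 46.9 kb at chr12:85455982-85502880, and Ier3 had 45.2 kb. Jun had 6.25 kb, and Junb had neither mark at an end. Of 12 starts near a region, 7 of them CpG-rich, 2 were uncovered. In the list of Klf and Sp factors, 12 of 25 (48%) had a region, among them Klf10 with 50.6 kb beside the gene and Klf13 with 44.6 kb at its end.

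The next signalling lists were above the share of all genes, with median widths of 9.93 to 13.6 kb beside 12.8 kb over all genes. In the TGF-beta and SMAD list, 19 of 32 genes (59.4%) had a region, with a median width of 9.93 kb. Id2 lay whole in a 93.8 kb region at chr12:25077142-25170981, Ski had 93.5 kb, the ligand Tgfb3 64.7 kb and Smad5 56.0 kb, which ended upstream of the gene. Of the 13 starts near a region, all CpG-rich, 10 were uncovered. The receptors Acvr1b, Acvr2a, Bmpr1a and Tgfbr2 were among the genes with an uncovered start.

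In the list of Wnt receptors and intracellular Wnt proteins, 17 of 32 (53.1%) had a region, with a median of 11.3 kb. Axin2 lay whole in 97.1 kb, the TCF factors Tcf7l2 and Tcf7 had 67.8 and 51.5 kb, and Ctnnb1, which encodes beta-catenin, had 59.2 kb at its end and an uncovered start beside a 4.15 kb region. In the Notch list 15 of 33 (45.5%) had a region, with a median of 13.6 kb, led by Jag2 with 76.6 kb, Hes6 with 71.6 kb and Nrarp with 58.8 kb. The receptors Notch1, Notch2 and Notch3 had 12, 11.7 and 13.6 kb, while 13 genes of the list, Dll4, Hey1 and Hey2 among them, had H2AK119ub together with H3K27me3 at their ends. In the EGF list 10 of 20 (50%) had a region, with a median of 13.4 kb, led by Hbegf with 61.4 kb and Spry1, a feedback inhibitor, with 35.1 kb.

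Genes of inflammation had a few wide regions. Their median width was near that of all genes in the cytokine list and above it in the NF-kB list. Of 30 cytokine and chemokine genes 15 (50%) had a region, with a median of 14.0 kb, and Csf1 lay whole in 93.6 kb at chr3:107711762-107805352 and Csf2 in 77.0 kb. Csf3 had 34.1 kb and Il34, the other ligand of the CSF1 receptor, 28.3 kb. In the NF-kB list 12 of 29 (41.4%) had a region, with a median of 17.6 kb. Tnfrsf1a, the TNF receptor of most cells, lay whole in 84.8 kb, Nfkb1 had 45.1 kb, Traf3 31.0 kb and Rela 28.6 kb.

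Nuclear receptors had regions at 15 of 32 genes (46.9%), with a median width of 37.1 kb. Rara, a retinoic acid receptor, shared 87.7 kb with the replication gene Cdc6, Ppara had 80.6 kb and Vdr, the vitamin D receptor, 52.0 kb. Ppard had 60.7 kb at its end, in the region it shared with Tead3. Among cell cycle inhibitors and p53 targets 16 of 27 (59.3%) had a region, with 74.5 kb at Gadd45b and 52.9 kb at Cdkn1a. Cdkn2a and Cdkn2b, which Polycomb silences in many cells, had both marks instead. Cyclins and replication genes had a region at 15 of 30 (50%) with a median of 7.22 kb, so their share was higher and their width lower than over all genes.

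Among the Polycomb genes themselves, 16 of 35 (45.7%) had a region. Pcgf2, a PRC1 subunit, had 45.7 kb, Ezh1 39.7 kb, Phf19, a PRC2 accessory subunit, 27.4 kb and Phc2, of canonical PRC1, 21.9 kb. The regions at Ezh1 and Phc2 lay at the end of the gene and covered 5.51% and 10.5% of it. Ring1, Rnf2, Kdm2b, Rybp and Yaf2 had 11.4, 3.25, 9.92, 8.02 and 5.12 kb, and the starts of Rnf2 and Kdm2b were uncovered with the region upstream. The PRC2 core genes Ezh2, Eed and Suz12 had neither mark at an end. Of the histone demethylases and acetylation enzymes 20 of 32 (62.5%) had a region, led by Kdm2a with 37.4 kb. That region lay beside Kdm2a, covered no base of it and held ends of Ankrd13d and Grk2.

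Genes used by all cells were divided. Lysosome and autophagy genes had a region at 17 of 27 (63.0%), subunits of RNA polymerase II and splicing factors at 16 of 30 (53.3%), mitochondrial ribosomal proteins at 32 of 78 (41.0%) and cytosolic ribosomal proteins at 31 of 80 (38.8%). Subunits and assembly factors of complex I had 12 of 47 (25.5%) and the proteasome 7 of 30 (23.3%), with neither mark at 21 of the 30 proteasome genes (70%). Of their starts near a region, those uncovered were 15 of 20 at mitochondrial ribosomal proteins, 9 of 12 at polymerase and splicing genes, 8 of 11 at complex I, 11 of 19 at cytosolic ribosomal proteins, 4 of 11 at lysosome and autophagy genes and 1 of 3 at the proteasome, beside 38.9% of all starts near a region and 51.8% of CpG-rich ones. Replication-dependent histone genes had a region at 34 of 58 (58.6%), but these 34 genes shared 19 regions with a median width of 5.48 kb, and none of the 58 had H3K27me3.

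**Figure D5:**
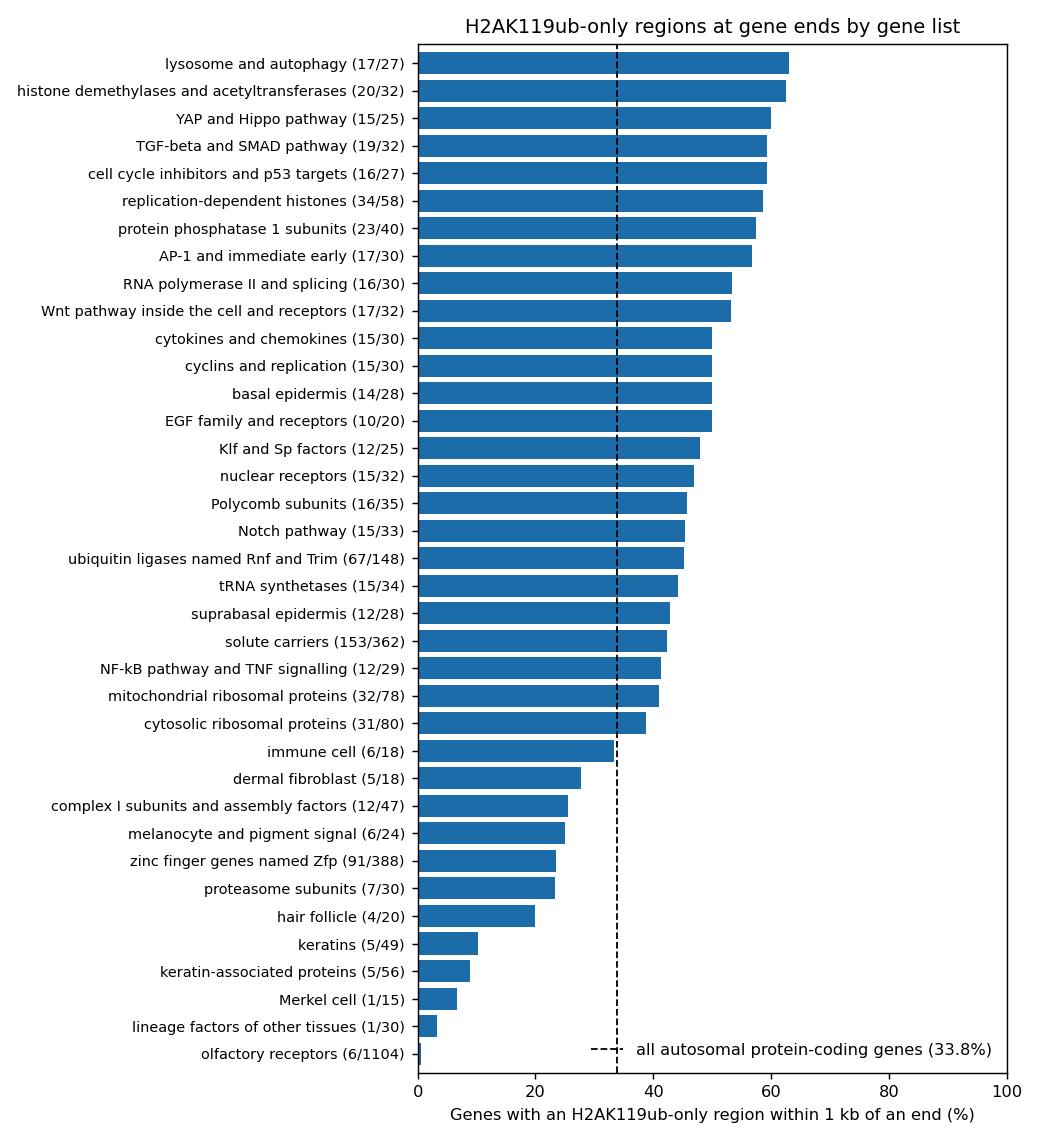
Share of the autosomal genes of each list (%) with an H2AK119ub-only region within 1 kb of an end, with the number of such genes over the number in the list after its name. The dashed line marks 33.8% over all autosomal protein-coding genes; among the lists drawn the lysosome and autophagy list is highest at 63.0% and the olfactory receptors lowest at 0.543%.

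Lists of other lineages come first here, followed by hair follicle genes and gene families. All had such a region at a smaller share than the 33.8% over all genes, with immune cell genes close to it. Of 30 lineage factors of other tissues 29 had H3K27me3 at an end (96.7%) and 1, Pax8, had an H2AK119ub-only region. All 15 Merkel cell genes had H3K27me3 and 1, Tubb3, had an H2AK119ub-only region. Of 18 dermal fibroblast genes 11 had H3K27me3 and 5 (27.8%) an H2AK119ub-only region. Immune cell genes had a region at 6 of 18 (33.3%), close to all genes. Hair follicle genes had H3K27me3 at 17 of 20 (85%) and an H2AK119ub-only region at 4 (20%). These were Foxn1 with 58.5 kb, Lrig1, and Lgr6 and Cd34 at their ends. Lrig1 had 13.2 kb past its last base and another region of 12.3 kb that began 490 bp downstream of its start. Keratins had a region at 5 of 49 (10.2%), with H3K27me3 at 25 and other H2AK119ub without H3K27me3 at 19. Olfactory receptors had 6 of 1104 (0.543%) and neither mark at 1057 (95.7%), and genes named Zfp had 91 of 388 (23.5%).

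Pigment genes, which the series as a whole concerns, had a region at 6 of 24 (25%). Wnt10a, a Wnt ligand, lay whole in 73.6 kb and Edn1, the endothelin ligand that keratinocytes send to melanocytes, in 22.5 kb, beside Csf2 and Foxn1 given above. The melanocyte genes Dct and Mitf had 12.9 and 5.95 kb. Melanocytes were not the sorted population, and a part of theirs in these values was not tested.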

How the data were processed

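ChIP-seq of H2AK119ub and H3K27me3 was analysed from the lists of regions the authors deposited, 1 per mark, with chromosome, start and end in bp per the file headers. Such coordinates carry no count, height or score, so depth is unknown. Per the submitters' processing notes, Bowtie2 2.3.3.1, SAMtools 1.9 and the build mm10 were used, in roles not stated. How regions were called, with which cutoffs, whether against the input and whether from both libraries together is not given in the sources used here. Both the count of regions and their widths depend on these settings.

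Starts were read as counted from 0 and turned into positions counted from 1, which leaves 1 bp of doubt. Gene ends came from a RefSeq table and strands, starts and sequences from a RefSeq promoter table, both of GRCm38.p6. The promoter table gave a strand for 16457 of 20665 autosomal protein-coding genes. Regions shared bases when at least 1 bp overlapped. A start counted as near a region when the region covered it or had an edge within 1 kb. Overlaps, distances, gene links and the relation to starts were checked on simulated lists with known answers, with 0 wrong values in each. Python 3.11.15, numpy 2.4.6, pandas 2.3.3, scipy 1.17.1 and matplotlib 3.10.9 were used.

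The members and the 39 gene lists were chosen with earlier results of these data known. The results of some of these lists are not reported here. Genes were named by a rule: up to 4 per list with the widest region, the 10 widest and 5 narrowest regions, the 5 with most genes, the 5 nearest to and farthest from H3K27me3, and 3 regions on each side of a limit. Other genes named within a list, such as those at uncovered starts or with neither mark, were chosen after their values had been seen. No test was made, since each mark has 1 list and genes or regions are not replicates. Intervals on shares are 95% Clopper-Pearson and cover counting error only.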

Additional observations from a re-analysis of the deposited data

How the results depend on the processing

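The number of H2AK119ub-only regions at gene ends was 6166 and lay between 4296 and 9134 under 10 alternatives, within 1.5 times of it. No paired analysis was possible because each mark has 1 list that names no replicate, and leaving out a replicate was not possible for the same reason. With a window of 0 bp in place of 1 kb, the median width was 12.6 kb, the distance to H3K27me3 54.8 kb, the share at a start 65.1%, the promoter CpG ratio 0.665 and the uncovered share of CpG-rich starts 30.6%. Regions must then cover an end by construction. With 5 kb the median width was 8.18 kb. With regions under 1 kb apart joined it was 9.92 kb. With all annotated genes the distance was 60.6 kb and 12211 genes had a region. With 10% overlap required for sharing, the distance was 54.1 kb and the width 9.97 kb. With no H3K27me3 within 10 kb the distance was 69.9 kb. With regions of at least 2 kb the width was 10.3 kb and the uncovered share 49.7%. With at least 5 kb the width was 13.1 kb, the distance 54.7 kb, the share at a start 73.9% and the uncovered share 41.7%.

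All alternatives for the uncovered share were added after the data had been seen. It was 55.5% with CpG-rich set at 55% GC and a ratio of 0.75, 38.0% with regions under 2 kb apart joined, and 32.7% with starts within 500 bp, where regions sharing bases with H3K27me3 left 7.21%. Joining at 2 kb was done before the rule was applied, and the CpG-rich starts near a region then numbered 2535 in place of 3119. The fall from 51.8% to 38.0% can thus reflect filled gaps as well as changes in which regions met the rule. These were not separated. Without replicate lists, the edges of regions carry no error, and a gap of 1 to 2 kb depends on the resolution of the unknown caller.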
